A study of Mus musculus with 29 samples.

Results

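The miRNAs of old and young mouse serum were compared across every miRNA detected there. The old group is serum of C57BL/6 mice aged 24 months (4 libraries) and the young group is serum of C57BL/6 mice aged 6 months (5 libraries), all of them labelled as controls without further treatment; sex is not given in the sources used here. Members were all miRNAs with a complete row in the deposited count table and at least 1 count in these 9 libraries, which gave 622 of 695. The series has 29 libraries in all, from serum and the tibialis anterior muscle of young, old and disuse mice; disuse serum (5 libraries, C57BL/6, 6 months, a disuse-induced atrophy model) entered the fit to steady the estimate of the spread and is set beside the results where useful. The labels do not say whether libraries came from different mice, and the p-values reflect only how far these libraries spread, which may be technical in part.

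A miRNA is a short RNA that guides the Argonaute protein to messenger RNAs, mainly through its seed, bases 2 to 8, and lowers their translation or stability. In serum, miRNAs travel in vesicles, with Argonaute or on lipoproteins, and come from blood cells, endothelium, liver, gut and other tissues, and also from cells that break while blood is drawn or clots. Serum counts therefore mix many sources. A share of reads is measured, so fewer cells releasing a miRNA and less release per cell cannot be told apart.

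Of the 622 detected miRNAs, 548 were seen in young and 474 in old serum, 176 in all 9 libraries, and 165 had enough counts to be tested. The other 457 held 0.308% of the counts. Totals were 45176 to 260729 counts in old and 68813 to 290818 in young serum, so a count of 0 allows up to 3 counts of the total, or 11.5 to 66.4 and 10.3 to 43.6 CPM respectively, for counting error only. CPM here is the count scaled to a common library size, with TMM factors except in these limits. The 10 leading miRNAs of each library took 69.4% to 82.7% of the counts in old and 58.1% to 80.0% in young serum.

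The 10 most abundant miRNAs of young serum included both stable and changed members. miR-486-5p, made in red cell precursors and muscle, took 24.3% ± 6.49 (SD, n = 5) of young and 20.1% ± 6.13 (SD, n = 4) of old counts. Its near copy miR-3107-5p followed at a fixed proportion, with 1.89 to 2.02 times as many counts of miR-486-5p in all 9 libraries, so the split between them may be set by the counting. miR-10b-5p took 8.34% ± 4.18 and 9.58% ± 3.01, miR-191-5p 7.05% ± 2.64 and 7.65% ± 0.506, and miR-22-3p 4.40% ± 2.44 and 4.61% ± 1.09 of young and old counts. miR-10a-5p, a miRNA of the HOX clusters, took 4.91% ± 2.43 of young and 10.4% ± 2.92 of old counts. Of the miRNAs that passed below, miR-146a-5p took 2.05% ± 0.516 of young and 4.81% ± 0.975 of old counts, and miR-181a-5p 2.13% ± 1.05 and 1.14% ± 0.356. Scaled by TMM, miR-10a-5p had a log2 fold change of 1.08 ± 0.42 (SE, adjusted p = 0.118) and overlapped between the groups.

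Young serum 1 stood apart. In the 9 libraries it held all but 1 of the 153 counts of miR-124-3p, a neuron miRNA, and all 12 of the neural miR-9-5p. Old serum had 0 of both. The other listed neural miRNA, miR-128-3p, did not stand out in young serum 1, at 527 CPM. It was at 340 to 1830 CPM in the other young libraries and 329 to 574 in old serum. miR-182-5p and miR-183-5p, sensory and retinal miRNAs of a single cluster, stood at 27750 and 16047 CPM in young serum 1. In the other 13 serum libraries they reached at most 5174 and 7170. Young serum 1 was the highest of the 14 serum libraries for 38 of the 165 tested miRNAs, and 8 of the 16 that passed below. Old serum 2 was the lowest of the 14 for 31 tested miRNAs and for 9 of those 16. Values without young serum 1 are given beside the miRNAs that passed.

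A ratio used as a red cell measure also differed between the age groups. The red cell ratio is the log2 of miR-451a, very abundant in red cells, over miR-23a-3p, which red cells hold little of. It was 0.71, 0.58, 1.32 and 1.37 in old serum 1 to 4, and 3.57, 1.62, 2.13, 2.67 and 1.54 in young serum 1 to 5. The groups did not overlap. The mean difference was -1.31 (exact two-sided permutation p = 0.0238, where 0.00794 is the smallest possible), and -0.997 without young serum 1 (exact permutation p = 0.0286). Part of the difference came with miR-23a-3p, at 3274 ± 458 CPM (SD) in old and 2331 ± 721 in young serum. Its log2 fold change in edgeR was 0.50 ± 0.25 (SE, adjusted p = 0.255), so the ratio is not a measure of miR-451a alone. Disuse serum had ratios of 1.33 to 2.38 and overlapped the young range, and its lowest ratio also lay below that of old serum 4. The part of this ratio in the results was not tested beyond the fit with it as a covariate.

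**Figure D1:**
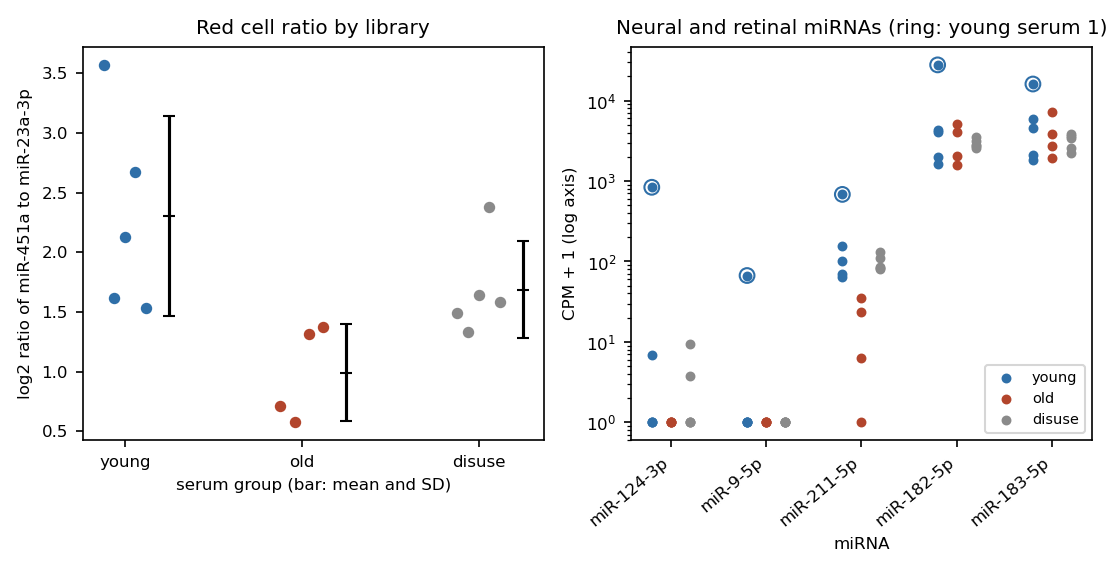
Left, the red cell ratio (log2, miR-451a over miR-23a-3p) in each serum library (points), with the mean and SD beside each group; right, CPM + 1 on a log axis of neural and retinal miRNAs in each library, with young serum 1 ringed. The ratios of the 4 old libraries, 0.58 to 1.37, lie below the young ones, and young serum 1 is the highest point for each of the 5 miRNAs on the right.

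Between old and young serum, 16 of the 165 tested miRNAs passed an adjusted p of 0.05, or 9.7%; 4 were higher in old serum (2.42%) and 12 lower (7.27%). The 4 were an inflammation-associated miRNA, a pair of gut, liver and kidney miRNAs, and miR-423-3p. The 12 included an imprinted-domain miRNA, red cell miRNAs, and members of the let-7, miR-181, miR-26, miR-15 and miR-148 families. For 15 of the 16 the old and young libraries did not overlap. Of all 165 tested, 17 did not overlap (10.3%), with 3.64% higher and 6.67% lower in old serum. The 16 were picked for a difference between these same libraries, so their lack of overlap is not separate support. Over all tested miRNAs the log2 fold change had a median of -0.09 and quartiles at -0.54 and 0.24. Without young serum 1, 12 miRNAs passed (4 higher, 8 lower), 9 of them among the 16, and the median was 0.03. With the red cell ratio as a covariate, 0 passed in edgeR, with 19 at an unadjusted p under 0.05 against 38 without it; the ratio and age go together in these libraries and the ratio contains miR-451a.

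The 15 miRNAs that passed and have a RefSeq sequence are shown with the seed in capitals, because several share it. miR-98-5p and let-7f-5p carry the let-7 seed, miR-181a-5p and miR-181b-5p that of miR-181, and miR-192-5p and miR-215-5p share another.
let-7f-5p: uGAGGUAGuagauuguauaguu
miR-98-5p: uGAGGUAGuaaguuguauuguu
miR-181a-5p: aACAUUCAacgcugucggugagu
miR-181b-5p: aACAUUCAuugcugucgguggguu
miR-192-5p: cUGACCUAugaauugacagcc
miR-215-5p: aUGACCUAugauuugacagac
miR-146a-5p: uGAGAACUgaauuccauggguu
miR-127-3p: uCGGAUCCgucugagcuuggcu
miR-26a-5p: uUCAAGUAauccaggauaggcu
miR-15b-5p: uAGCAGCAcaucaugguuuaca
miR-148b-3p: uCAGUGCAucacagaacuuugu
miR-144-5p: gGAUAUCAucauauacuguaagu
miR-451a: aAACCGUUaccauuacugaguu
miR-211-5p: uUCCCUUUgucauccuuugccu
miR-423-3p: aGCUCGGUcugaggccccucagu

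**Figure D2:**
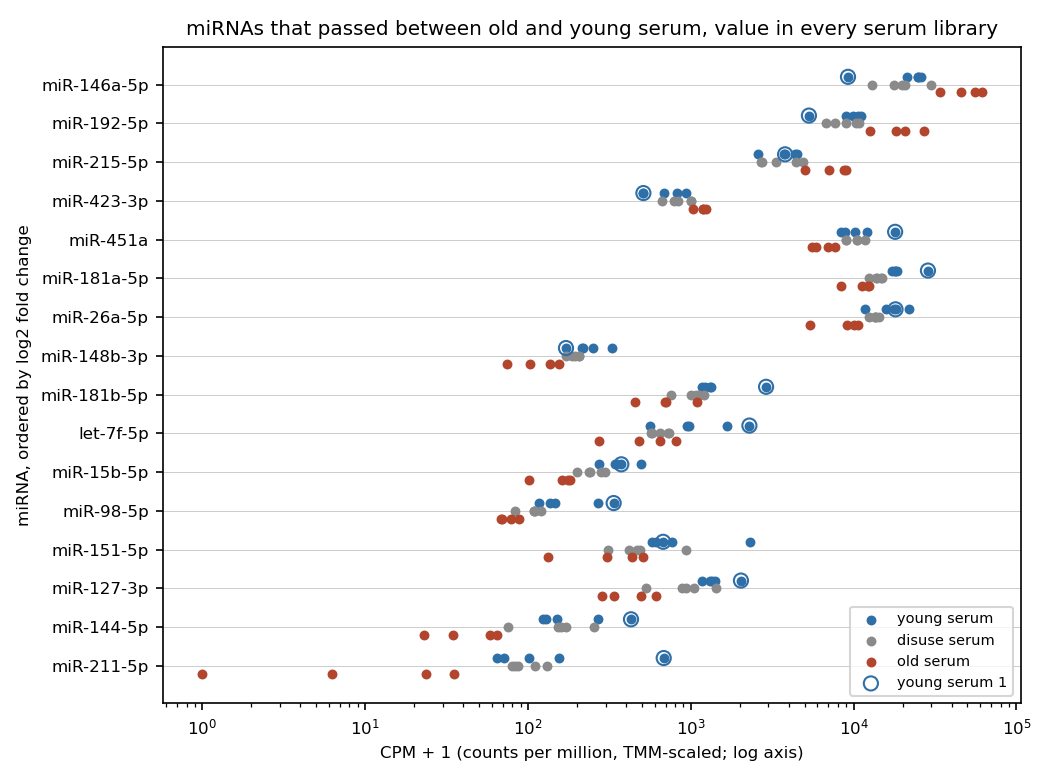
CPM + 1 on a log axis for the 16 miRNAs that passed, ordered by log2 fold change, with a point for every young, disuse and old serum library and a ring around young serum 1. Old and young points do not overlap for 15 of the 16, let-7f-5p being the exception.

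miR-146a-5p, which dampens innate immune signalling through TRAF6 and IRAK1, was higher in old serum. It stood at 55726, 61062, 34050 and 45693 CPM in old serum 1 to 4 and at 9237, 24699, 21201, 25949 and 25015 in young serum 1 to 5. All old libraries lay above all young ones, with young serum 1 the lowest. The log2 fold change was 1.21 ± 0.30 (SE, adjusted p = 0.0184), and 1.12 without young serum 1 (adjusted p = 0.0172). It lies outside any other annotated gene at chr11:43374435-43374456. Its relative miR-146b-5p, which has the same seed but another locus, was at 1829 ± 388 CPM (SD, n = 4) in old and 2035 ± 1081 (n = 5) in young serum, for which the fitted change on the log2 scale was -0.15 ± 0.31 (adjusted p = 0.827).

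miR-192-5p and miR-215-5p, a seed pair of intestine, liver and kidney, rose together. miR-192-5p stood at 20761, 27046, 18211 and 12585 CPM in old and 5316, 11164, 10681, 8942 and 9856 in young serum (log2 fold change 1.10 ± 0.26, adjusted p = 0.0173). miR-215-5p stood at 9000, 8731, 7067 and 5021 CPM in old and 3795, 4390, 4494, 3714 and 2602 in young serum (0.97 ± 0.25, adjusted p = 0.0187). The groups did not overlap for either, and old serum 4 was the lowest old library for both. Both kept their call without young serum 1, at 1.05 and 1.07 (adjusted p = 0.0172 each).

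Their genomic neighbour did not follow. miR-192-5p (chr19:6264857-6264877) and miR-215-5p (chr1:185313610-185313630) each have a copy of miR-194-5p next to them, with starts 199 and 285 bases apart. The first overlaps no other annotated gene, and the second lies in an exon of the noncoding 2010103J01Rik and antisense to an intron of Iars2. miR-194-5p, a miRNA of the same tissues, was at 169, 89.4, 190 and 110 CPM in old and 214, 204, 153, 117 and 150 in young serum, and the groups overlapped (log2 fold change -0.25 ± 0.32, adjusted p = 0.676). miR-122-5p, the main hepatocyte miRNA, was at 1528 ± 668 CPM in old and 1464 ± 880 in young serum (0.09 ± 0.49, adjusted p = 0.946). Of the 3 tested hepatocyte miRNAs, 1 (miR-192-5p) rose and 2 did not pass, where 4 of all 165 rose (2.42%).

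miR-423-3p, an intronic miRNA of Nsrp1 (chr11:77078086-77078108), was the least firm of the 4. It stood at 1183, 1241, 1035 and 1184 CPM in old and 511, 820, 511, 935 and 684 in young serum (0.74 ± 0.23, adjusted p = 0.0472; 0.74 without young serum 1, adjusted p = 0.0675). The groups did not overlap, yet the call was lost in 7 of the 9 fits that left out a library, with log2 fold changes of 0.65 to 0.87. The other arm of its hairpin, miR-423-5p, had 0.41 ± 0.27 (adjusted p = 0.410).

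miR-127-3p had the smallest adjusted p of all tested miRNAs. It comes from the Dlk1-Dio3 imprinted domain, whose miRNAs are made from the maternal chromosome, and lies antisense to an exon of the retrotransposon-derived gene Rtl1 at chr12:109592888-109592909. It stood at 338, 284, 496 and 614 CPM in old serum 1 to 4 and at 2032, 1174, 1302, 1348 and 1401 in young serum 1 to 5, with no overlap. The log2 fold change was -1.78 ± 0.31 (adjusted p = 0.00306), and -1.53 without young serum 1 (adjusted p = 0.0144). It was the only miRNA of the 16 that kept its call in all 9 fits that left out a library (adjusted p = 0.00299 to 0.0279). With the red cell ratio as a covariate it had -1.10 (adjusted p = 0.233).

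The rest of the imprinted domain was scarce in serum. Of 42 listed members in the table, 41 were detected and 2 were tested. miR-434-3p, whose start lies 1677 bases from that of miR-127-3p, was at 38.7 ± 15.9 CPM in old and 102 ± 64.9 in young serum (-1.40 ± 0.45, adjusted p = 0.0571; -0.86 without young serum 1, adjusted p = 0.233). The 40 members that were not tested summed to 51 counts in old and 197 in young serum. Per library their sum was 21.9 to 146 CPM in old and 167 to 357 in young serum, which do not overlap. The lowest sum is 1 count of old serum 4, where a count of 0 allows up to 66.4 CPM. Of the 165 tested miRNAs, 10.3% did not overlap. In the 4 old libraries 19 of the 40 were seen, and in the 5 young libraries 36. Of all 622 detected miRNAs, 474 were seen in old and 548 in young serum. The 40 members had too few counts to test member by member.

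**Figure D3:**
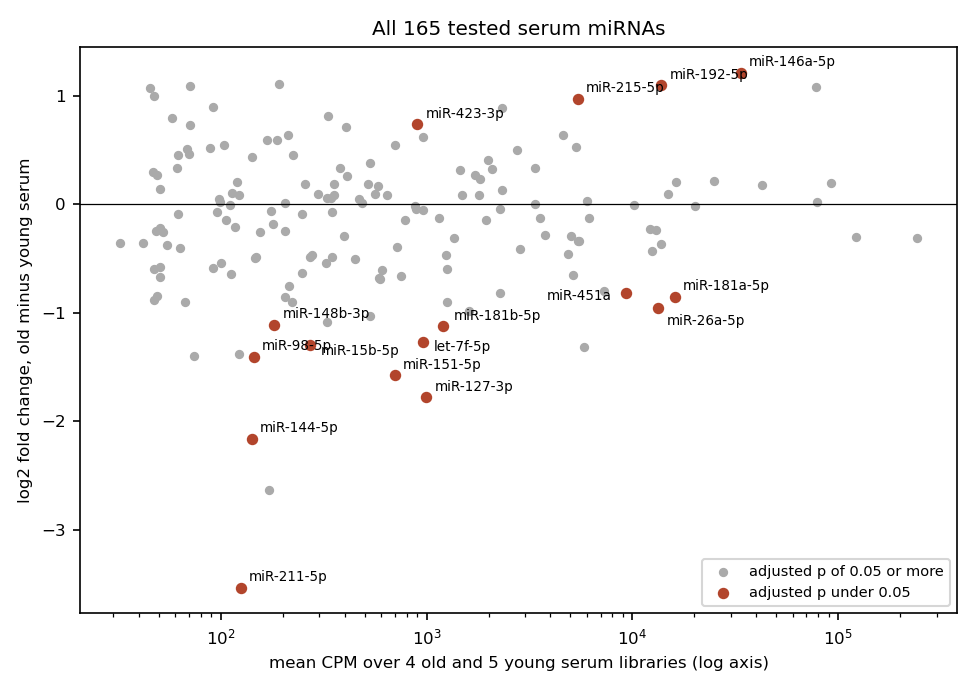
Log2 fold change of old against young serum for the 165 tested miRNAs against their mean CPM over the 9 libraries (log axis), with the 16 that passed in colour and named. Those 16 span mean levels of 125 to 33626 CPM and log2 fold changes of -3.53 to 1.21.

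The red cell miRNAs miR-144-5p and miR-451a were lower in old serum. Their mature sequences start 176 bases apart on chromosome 11 (chr11:78073010-78073032 and chr11:78073186-78073207) outside any other annotated gene. miR-144-5p stood at 33.8, 57.9, 63.2 and 21.9 CPM in old and 428, 122, 128, 268 and 150 in young serum (-2.16 ± 0.48, adjusted p = 0.0154). These values rest on few counts, 3, 11, 13 and 1 in old serum 1 to 4 and 78, 21, 15, 55 and 9 in young serum 1 to 5. miR-144-5p passed the count filter through young and disuse serum, where it was higher. miR-451a stood at 5880, 5565, 6999 and 7674 CPM in old and 17991, 8378, 12145, 10197 and 8872 in young serum (-0.82 ± 0.24, adjusted p = 0.0363). Neither overlapped between the groups, and young serum 1 was the highest for both. Without young serum 1, miR-144-5p kept its call (-1.64, adjusted p = 0.0281) and miR-451a did not (-0.50, adjusted p = 0.114).

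The other tested red cell miRNAs did not pass. miR-144-3p, the other arm of the same hairpin, was at 60.2 ± 42.5 CPM in old and 172 ± 126 in young serum (-1.38 ± 0.52, adjusted p = 0.111). miR-16-5p had -0.37 ± 0.19 (adjusted p = 0.249), miR-486-5p -0.31 ± 0.39 (0.676), miR-25-3p -0.13 and miR-92a-3p -0.01. Of 7 tested members of the erythrocyte list, 2 fell and 5 did not pass, with a median of -0.37. Of all 165, 12 fell (7.27%), with a median of -0.09. Without young serum 1, 1 of the 7 fell and 5 were below 0. In that fit 8 of all 162 tested fell and 75 were below 0. The summed level of the list was 152645 to 405988 CPM in old and 193846 to 554458 in young serum, mostly miR-486-5p, and overlapped.

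The let-7 family, which restrains growth and developmental genes such as Lin28 and Hmga2, had 2 members that fell. let-7f-5p stood at 642, 274, 481 and 811 CPM in old and 2290, 558, 979, 1660 and 951 in young serum (-1.27 ± 0.37, adjusted p = 0.0365), with young serum 2 inside the old range. miR-98-5p stood at 67.6, 68.4, 77.8 and 87.7 CPM in old and 335, 116, 145, 136 and 267 in young serum (-1.40 ± 0.36, adjusted p = 0.0189), with no overlap. A copy of let-7f-5p and miR-98-5p start 876 bases apart in an intron of Huwe1 (chrX:151912353-151912374 and chrX:151913229-151913250). Without young serum 1 neither passed (-0.86, adjusted p = 0.114, and -0.98, adjusted p = 0.0852).

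All 9 miRNAs with the let-7 seed had log2 fold changes below 0, where 93 of the 165 tested did. Of the 9, 2 fell and 7 did not pass, where 12 of all 165 fell (7.27%). Their median was -0.90, against -0.09 for all tested. let-7d-5p (-1.08, adjusted p = 0.0508), let-7a-5p (-1.02, 0.0587) and let-7i-5p (-0.81, 0.0649) came next. let-7c-5p, the most abundant member, had -0.28, and let-7b-5p had -0.12, the value nearest to 0. Together the 9 summed to 7760 ± 2273 CPM (n = 4) in old and 11447 ± 3721 (n = 5) in young serum, and overlapped. Without young serum 1 the median was -0.65, 7 of the 9 were below 0 and 0 passed in edgeR. In that fit the median of all 162 tested was 0.03, 75 were below 0 and 8 fell. Of the 9, 5 had an unadjusted p under 0.05 in edgeR, where 36 of the 162 did. These p-values ran from 0.00894 for miR-98-5p and 0.0164 for let-7f-5p to 0.0473 for let-7i-5p.

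The miR-181 family, known for tuning T cell receptor signalling and for its abundance in lymphoid and neural cells, had 4 of 4 members below 0, where 93 of the 165 tested were, and a median of -0.77, where that of all tested was -0.09. Of the 4, 2 fell, where 12 of all 165 did (7.27%). Without young serum 1 the median was -0.53 and 0 passed in edgeR, where 8 of all 162 fell with a median of 0.03. miR-181a-5p stood at 12459, 8395, 11300 and 12300 CPM in old and 28617, 18495, 17924, 17270 and 17877 in young serum (-0.85 ± 0.21, adjusted p = 0.0184). miR-181b-5p stood at 1093, 452, 695 and 702 CPM in old and 2900, 1326, 1311, 1178 and 1217 in young serum (-1.12 ± 0.31, adjusted p = 0.0274). Neither overlapped, and 4 of the 5 young libraries were close together with young serum 1 far above. Without it the values were -0.60 (adjusted p = 0.0532) and -0.70 (0.0976), and neither passed. They are encoded in pairs, at chr1:137966468-137966490 and chr1:137966650-137966673, and at chr2:38852741-38852763 and chr2:38853845-38853868, antisense to an intron of Nr6a1. miR-181c-5p and miR-181d-5p, from another locus, had -0.68 (adjusted p = 0.181) and -0.64 (0.389).

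**Figure D4:**
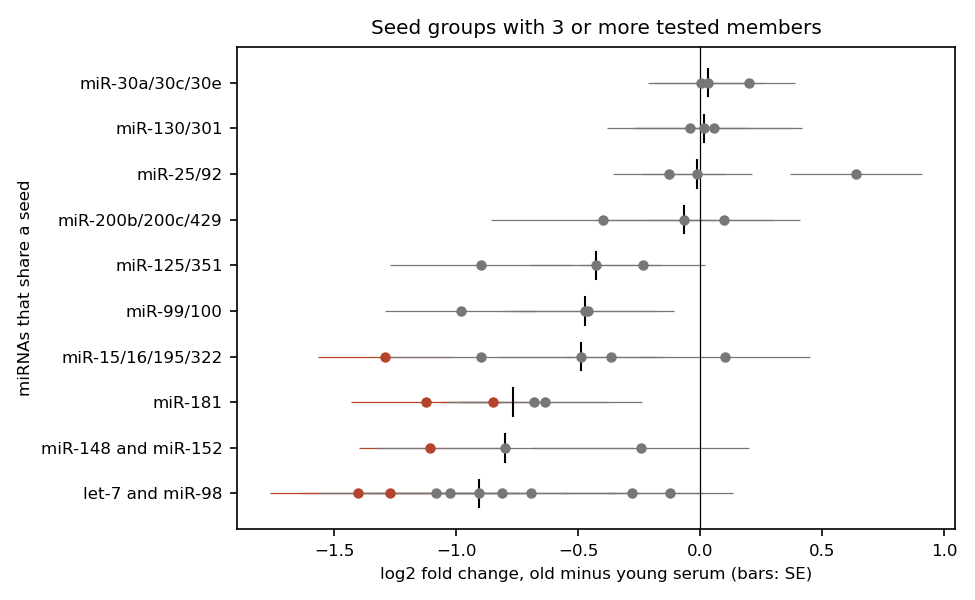
Log2 fold change of old against young serum, with its SE as a bar, for each member of the seed groups with 3 or more tested members; vertical ticks are group medians and coloured points passed. The let-7, miR-148, miR-181 and miR-15 groups hold the members that passed, and the 3 members of each of the miR-30 and miR-130 groups with a RefSeq sequence lie between -0.04 and 0.20.

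miR-26a-5p, which targets the methyltransferase Ezh2 and has a copy in introns of both Ctdspl (chr9:119031811-119031832) and Ctdsp2 (chr10:126995543-126995564), was lower in old serum. It stood at 10048, 5365, 9054 and 10656 CPM in old and 18090, 11733, 17618, 21928 and 15876 in young serum, with no overlap (-0.96 ± 0.23, adjusted p = 0.0184). The call held without young serum 1 (-0.84, adjusted p = 0.0281). miR-26b-5p, with the same seed, had -0.47 ± 0.34 (adjusted p = 0.437).

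miR-15b-5p, of the family that represses cyclin D1 and Bcl2, lies in an intron of Smc4 (chr3:69009775-69009796). It stood at 180, 99.9, 160 and 175 CPM in old and 373, 273, 340, 496 and 350 in young serum, again with no overlap (-1.29 ± 0.28, adjusted p = 0.0154; -1.19 without young serum 1, adjusted p = 0.0172). A copy of miR-16-5p starts 143 bases from it and had -0.37, as given above. Of 6 tested members of the family, 1 fell and 5 did not pass, where 12 of all 165 fell (7.27%). Their median was -0.68, against -0.09 for all tested. Without young serum 1 again 1 of the 6 fell, with a median of -0.38, where 8 of all 162 fell with a median of 0.03.

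miR-148b-3p, an intronic miRNA of Copz1 (chr15:103285185-103285206) in a family that targets the methyltransferase Dnmt1, stood at 135, 73.6, 102 and 153 CPM in old and 170, 250, 213, 326 and 217 in young serum. The groups were separate, with old serum 4 close to young serum 1. The log2 fold change was -1.11 ± 0.29 (adjusted p = 0.0210), and -1.13 without young serum 1 (adjusted p = 0.0281). Its abundant relative miR-148a-3p spread from 2099 to 9735 CPM in old and 2142 to 15811 in young serum (-0.80 ± 0.52, adjusted p = 0.410).

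miR-151-5p, for which a sequence was not used here, stood at 304, 131, 433 and 504 CPM in old and 675, 576, 613, 2297 and 767 in young serum (-1.58 ± 0.48, adjusted p = 0.0465). The groups did not overlap, and young serum 4 was far above the other libraries. Without young serum 4 the value was -0.99 (adjusted p = 0.143), and without young serum 1 it was -1.60 (adjusted p = 0.0532). The more abundant miR-151-3p had -0.34 ± 0.28 (adjusted p = 0.472).

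miR-211-5p, an intronic miRNA of the melanocyte and retina gene Trpm1 (chr7:64205831-64205852), had the lowest log2 fold change of the tested miRNAs on few counts. It had 2, 1, 7 and 0 counts in old serum 1 to 4 and 124, 12, 18, 13 and 6 in young serum 1 to 5, or 0 to 34.0 CPM in old and 63.3 to 681 in young serum. No library overlapped, though the 0 of old serum 4 allows up to 66.4 CPM. It passed the count filter through young and disuse serum, where it was higher. With only the 9 old and young libraries, or after thinning to the shallowest library, it had too few counts to be tested. The log2 fold change was -3.53 ± 0.81 (adjusted p = 0.0159), and -2.19 without young serum 1 (adjusted p = 0.0172). Disuse serum lay at 97.2 ± 21.5 CPM (n = 5). miR-204-5p, which has the same seed and lies in another Trpm gene, had -0.66 ± 0.36 (adjusted p = 0.306), and -0.26 without young serum 1. The retinal miR-182-5p and miR-183-5p had -1.31 and -0.65 with all libraries and 0.20 and 0.21 without young serum 1, none past the threshold; their part in the fall of miR-211-5p was not tested.

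miRNAs of several other sources did not pass. Of all 165 tested, 16 passed (9.7%) and 38 had an unadjusted p under 0.05 in edgeR. With lists this short, 0 passing does not set them apart from that share. In the leukocyte list 0 of 5 tested passed, with 2 at an unadjusted p under 0.05, a median of -0.00442 and miR-223-3p, of myeloid cells and platelets, at 844 ± 232 CPM in old and 584 ± 95.4 in young serum (0.55 ± 0.25, adjusted p = 0.181). In the endothelial list 0 of 2 passed (median -0.33), in the platelet list 0 of 3 (0.24) and in the epithelial list 0 of 6 (0.17), with 0, 1 and 0 at an unadjusted p under 0.05 in edgeR. Of the muscle miRNAs, old serum held 2238 ± 489 CPM of miR-133a-3p and young serum 2307 ± 928 (-0.05 ± 0.39, adjusted p = 0.968). miR-1a-3p was at 0 to 68.4 CPM in old and 0 to 51.1 in young serum and was not tested, and miR-208b-3p was at 0 in all 9 libraries. The miR-30 family had 0 of 5 past the threshold in edgeR, 0 at an unadjusted p under 0.05 and a median of 0.03. miR-29a-3p, of the collagen-regulating miR-29 family, did not overlap between the groups (5725 ± 1009 against 3677 ± 1070 CPM) and had 0.64 ± 0.23 (adjusted p = 0.0948); without young serum 1 it passed at 0.84 (adjusted p = 0.0319).

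Detection itself differed little beyond low counts. In all, 74 miRNAs were seen only in old and 148 only in young serum, but those only in old summed to at most 5 counts each. Of those only in young, miR-124-3p had 153 counts, miR-9-5p 12 and miR-1947-5p 8, and the last was the only miRNA counted in all 5 young and 0 old libraries (named after its values were seen). Of 18 hairpins with both arms tested, 13 had both arms on the same side of 0. The log2 ratio of the 5p to the 3p arm was -1.60 ± 0.55 (SD) in old and -0.19 ± 0.88 in young serum for let-7d, and -3.92 ± 1.01 and -2.69 ± 0.53 for miR-151. Both had an exact permutation p of 0.0317 (two-sided), and adjusted over the 18 hairpins p = 0.285. Across the 135 tested miRNAs with a RefSeq sequence, the GC content had r = 0.18 and rho = 0.24 with the log2 fold change. The median GC content was 40.9% for the 11 that fell and have a sequence, 44.3% for the 4 that rose and 45.5% for all 135. These points share the same 9 libraries. Across all 165, mean level had r = 0.08 and rho = 0.02.

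**Figure D5:**
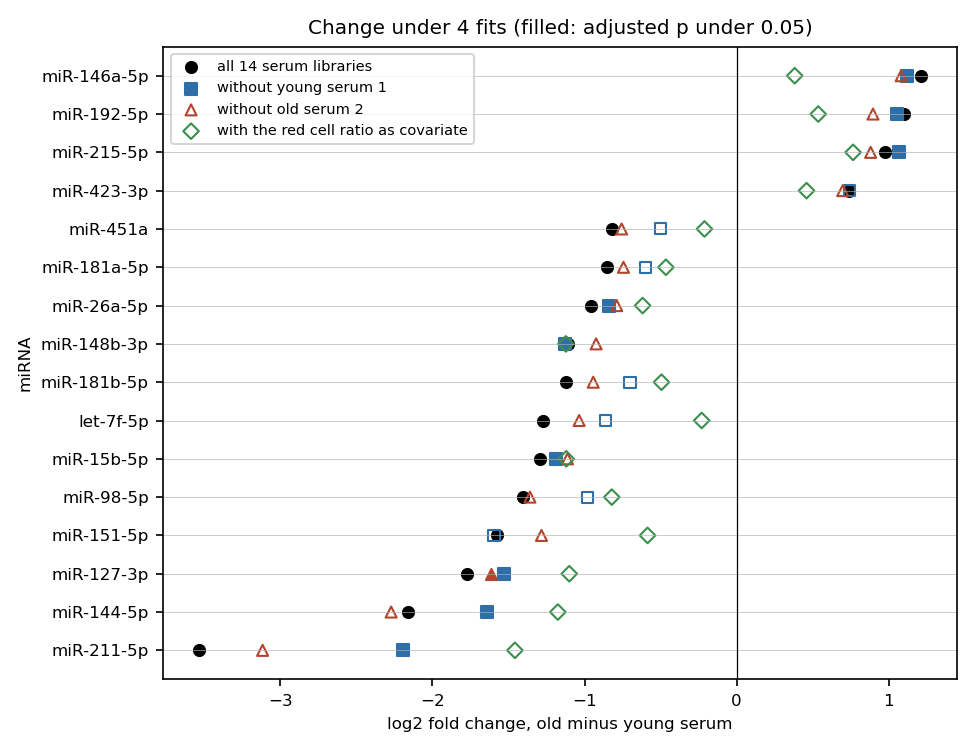
Log2 fold change of the 16 miRNAs under 4 fits: all 14 serum libraries, without young serum 1, without old serum 2, and with the red cell ratio as a covariate; filled symbols passed an adjusted p of 0.05. All signs are the same across the 4 fits, miR-127-3p alone is filled without old serum 2, and 0 are filled with the covariate.

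Without old serum 2, which leaves 3 old libraries, 1 miRNA passed, miR-127-3p (-1.61, adjusted p = 0.0264), and the other 15 had adjusted p-values of 0.0634 to 0.170 with the same signs. Their log2 fold changes stayed of similar size, such as -2.27 for miR-144-5p, -3.12 for miR-211-5p, -1.36 for miR-98-5p and 1.08 for miR-146a-5p; 30 of all tested had an unadjusted p under 0.05. Without old serum 1, 9 passed (1 higher, 8 lower). Leaving out any other single library gave 12 to 20.

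The same ages were compared in muscle, where 20 of 341 tested miRNAs passed (5.87%). Of the 16, 14 were tested in the tibialis anterior, 8 on the same side of 0 as in serum and 1 past the threshold. The share on the same side was not worked out over all miRNAs tested in both sources, so the 8 cannot be judged. Some muscle values lay near 0, such as -0.02 for miR-192-5p and 0.01 for miR-148b-3p. The 1 past the threshold was miR-127-3p, with -1.46 in muscle (adjusted p = 1.79e-05). Its change in serum minus that in muscle was -0.18 ± 0.37 (adjusted p = 0.858). Over 241 miRNAs tested for such a difference, 2 passed (0.83%). miR-211-5p had 1.01 ± 0.41 in muscle (adjusted p = 0.134) and a difference of -4.41 ± 0.92 (adjusted p = 0.00715; -3.39 without young serum 1, adjusted p = 0.00593). miR-15b-5p had 0.43 in muscle (adjusted p = 0.318) and a difference of -1.60 ± 0.40 (adjusted p = 0.0391; -1.80 without young serum 1, adjusted p = 0.00593). The call of miR-15b-5p was lost with the replicate block (-1.46, adjusted p = 0.0701), with limma-voom (-1.48, 0.0746), without old serum 2 (-1.52, 0.131) and without young serum 4 or 5 (0.0631 and 0.0504), and both calls were lost with only the 19 old and young libraries (adjusted p = 0.0551 for miR-211-5p and 0.0875 for miR-15b-5p). Without young serum 1, 6 passed. miR-192-5p (-0.02 in muscle, difference 1.25, adjusted p = 0.0753) and miR-146a-5p (0.13 in muscle, difference 1.20, adjusted p = 0.148) did not pass.

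Disuse serum, which has the age of the young group, shares those young libraries as a control. Between disuse and young serum 0 of all 165 passed in edgeR (0%), and 20 of the 165 had an unadjusted p under 0.05. Of the 16, 7 had such a p, and 13 lay on the same side of young serum as in old serum. The others were miR-146a-5p, miR-192-5p and miR-215-5p, with log2 fold changes against young of -0.07, -0.05 and -0.07. The 16 were picked for a difference from these same young libraries, so the counts cannot tell disuse from that choice. Of the 4 miRNAs that rose with age, the disuse means were 20270 ± 6227 CPM for miR-146a-5p, 8900 ± 1710 for miR-192-5p, 3622 ± 995 for miR-215-5p and 859 ± 147 for miR-423-3p (SD, n = 5). The young means were 21220, 9192, 3799 and 692 CPM in the same order, and the old means 49133, 19651, 7455 and 1161. For miR-98-5p and let-7f-5p the disuse means were 106 ± 13.7 and 649 ± 78.0 CPM, with log2 fold changes against young of -0.89 (adjusted p = 0.358) and -0.99 (0.358).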

How the data were processed

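Small RNA was sequenced from the serum of C57BL/6 mice, 4 libraries at 24 months and 5 at 6 months. Per the labels' protocols, RNA from 300 µl of serum gave 10 ng for TruSeq small RNA libraries with up to 15 PCR cycles. Per the submitters' processing notes, the tools and builds include Bowtie and mm10. The treatment of reads fitting more than 1 miRNA was not given in the sources used here. Deposited values are counts, whole reads per mature miRNA and library, without normalization by the authors. The last muscle column was recorded as unit other, since 488 deposited miRNAs hold 28 values and no cell there; only the 695 with all 29 values were used. Columns matched samples by title.

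The tests used edgeR 4.0.16 (R 4.3.3) with its quasi-likelihood fit, TMM factors, filterByExpr and Benjamini-Hochberg adjustment over all tested miRNAs; 5 disuse serum libraries shared the spread. SE is the absolute log2 fold change over the square root of F. Alternatives were other scalings and filters, DESeq2 1.42.0, limma 3.58.1 (voom), thinning, a replicate block, a red cell ratio as covariate and libraries left out. The test was checked on simulated counts. Sequences and positions are RefSeq's on GRCm38.p6, the assembly of mm10; overlapping genes are GENCODE's. Of the 165 tested miRNAs, 135 matched RefSeq by name. Named miRNAs are those that passed, the next by p, the most abundant and members of listed families. The members and lists were chosen with earlier results of these data known.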

Additional observations from a re-analysis of the deposited data

Results flagged for a closer look

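In 38 groups of values examined for a sample far from the rest, 6 were picked out, where chance picks about 1 in 20 of independent, normally spread groups. Of these, 5 were young serum 1: it was highest for miR-127-3p (2032 CPM, next 1401), miR-211-5p (681, next 153), miR-181a-5p (28617, next 18495) and miR-181b-5p (2900, next 1326), and lowest for miR-146a-5p (9237, next 21201). The other was young serum 4, highest for miR-151-5p (2297 CPM, next 767). The 38 groups share the same 9 libraries and most are of miRNAs that passed, so 6 of 38 cannot be set against that rate.

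The age change in serum differed from that in muscle by -4.41 for miR-211-5p and by -1.60 for miR-15b-5p on the log2 scale, in a test of the difference itself; the call of miR-15b-5p was lost with the replicate block (adjusted p = 0.0701) and under other alternatives given above.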

How the results depend on the processing

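The 16 log2 fold changes kept their sign in all 332 values from alternatives, and 98 of these were no longer past the threshold. miR-211-5p had too few counts to be tested with only the 9 old and young libraries or after thinning. The same held for miR-144-5p and miR-98-5p after thinning. Counts that passed, with those higher and lower in old serum, were 5 (2 and 3) with library totals, 6 (3 and 3) with only the 9 old and young libraries in the fit, 11 (4 and 7) without both shallowest libraries, an alternative chosen after seeing the data, and 0 (0 and 0) with the red cell ratio as covariate. Other scalings, filters, tools and thinning gave 13 to 21, DESeq2's Wald test the most. The cause of these differences was not tested. In 2 of them the samples were fewer, and the miRNAs tested changed too. They were 140 with only the 9 libraries and 169 without both shallowest libraries, against 165. Leaving out 1 library gave 1 to 20 (0 to 4 higher, 1 to 16 lower). Replicate numbers gave no clear pairing of the samples. Same-numbered old and young libraries had correlations of 0.23, 0.436, -0.115 and -0.257, and 2 of 4 old libraries correlated best with their own number. These 4 values are too few to decide whether the numbers pair the samples. With the replicate block 14 passed (3 higher, 11 lower), 13 of them among the 16; the calls of miR-98-5p, miR-451a and miR-423-3p were lost.

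For the difference between serum and muscle, 2 passed; the count was 0 with only the 19 old and young libraries (27 at an unadjusted p under 0.05), 1 with limma-voom, 2 with the replicate block (miR-211-5p and miR-151-5p, with miR-15b-5p lost) and 1 to 6 without a serum library. The red cell ratio differed by -1.51 to -0.997 without a library, and exact permutation p rose to 0.0536 without old serum 1 (-1.22) or 2 (-1.17). Depth limits the rarer miRNAs: of 622 detected, 457 were not tested.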
